A study of Mus musculus with 6 samples.

Results

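The regions described here are the Tcf1 ChIP-seq peaks that were called in WT NK cells and had no KO counterpart. They were chosen by their calls: a peak of the WT Tcf1 list on chromosomes 1 to 19 or X counted if it shared no base with any peak of the KO Tcf1 list. By this rule 734 of 848 WT Tcf1 peaks were members, out of 30754 peaks in the 4 lists together. The remaining 114 WT peaks overlapped a KO peak and are referred to as called in both. On the KO side, 4976 of 5090 Tcf1 peaks overlapped no WT peak. Tags, scores, fold enrichments and false discovery rates (FDRs) of the Tcf1 lists lie behind the calls, so they are given as a description.

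Natural killer (NK) cells are innate lymphocytes; they destroy virus-infected and tumour cells through perforin and granzymes. The KO cells were from the spleens of Tcf7-/- mice, with the strain given as B6.129 Tcf7Tm1Cle, and the WT cells from the spleens of Tcf7+/+ mice of strain B6. Strain background and genotype therefore cannot be told apart. All cells were grown in culture for 5 days with 500 ng/mL of IL-2, a cytokine that makes NK cells divide and raises their killing capacity. Each genotype gave 1 input library, 1 Tcf1 library and 1 library of H3K4me3, a histone mark found at active promoters. With 1 library a group there was no replicate check of any difference, and no p-value is given. The labels do not say how many mice gave cells to a library, and tags from more cells or more tags per cell cannot be told apart in such bulk chromatin.

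Tcf7 encodes Tcf1, an HMG-box protein of the Tcf/Lef family that is needed for T cell development and for normal numbers of NK cells. In Wnt signalling, Tcf/Lef factors hold repressors of the Groucho family at their targets until beta-catenin enters the nucleus and replaces them. The classic targets include feedback inhibitors of the pathway, of which Axin2 is the best known. Tcf/Lef factors bind a short DNA word with a CTTTG core followed by A or T bases, and they bend the DNA on binding.

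The letters under these peaks were read where a promoter sequence was at hand. For 25 of the 734 peaks, 30 RefSeq promoter sequences of assembly GRCm38.p6 met the peak. Each ran over 300 bases, from 250 before to 50 after a start. CTTTGAT or CTTTGTT, the Tcf/Lef words searched on both strands, stood in 5 of the 30 sequences (16.7%, 95% Wilson interval 7.34 to 33.6%), against 9.33% of all 32851 promoter sequences in the table. The interval holds that background share. All 5 sequences held CTTTGAT, a word found in 3.73% of all promoter sequences, which is below the interval. Of sequences meeting a KO-only peak 5.21% held that word (2.24 to 11.6%), an interval that overlaps the WT-only one. The sequences of Bcs1l and Zfp142, which lie head to head, shared a single site, so the WT-only interval is too narrow and 4 loci carried a match. They are printed below in lower case with the match in capitals, as ATCAAAG where the word reads on the opposite strand. The longer pair is shown because the peaks were the strongest with a match, and the shorter pair because their matches also lay inside the peak.
1190007I07Rik, chr10:82623229-82623478, minus strand, 250 bases before the start: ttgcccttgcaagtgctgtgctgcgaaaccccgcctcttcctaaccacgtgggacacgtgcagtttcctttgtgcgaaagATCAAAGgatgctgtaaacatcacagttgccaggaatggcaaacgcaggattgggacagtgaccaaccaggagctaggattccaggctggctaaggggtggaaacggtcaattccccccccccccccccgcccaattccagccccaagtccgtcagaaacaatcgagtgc
Gm41168, chr14:61056512-61056761, plus strand, 250 bases before the start: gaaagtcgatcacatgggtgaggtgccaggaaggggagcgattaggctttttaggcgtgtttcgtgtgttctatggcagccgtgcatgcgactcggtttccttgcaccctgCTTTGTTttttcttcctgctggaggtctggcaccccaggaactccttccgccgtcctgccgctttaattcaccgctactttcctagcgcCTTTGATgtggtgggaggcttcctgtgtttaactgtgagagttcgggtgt
Bcs1l, chr1:74588041-74588067, plus strand: cctcgggggcCTTTGATgtggccgccc
Kmt2d, chr15:98871302-98871328, minus strand: ctcgcccaagATCAAAGccaccggtgc

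At these loci the match nearest to the point of highest Tcf1 coverage, the summit, lay 17 to 149 bp from it. The windows with a match lay wholly inside their peaks, which limits such distances, and no distance for other positions was computed. The distance was 17 bp for the CTTTGAT of Gm41168, a long noncoding RNA gene. The nearest protein-coding start to that summit, 9.84 kb away, was that of Tnfrsf19. The distance was 34 bp for 1190007I07Rik, 81 bp for Bcs1l, which encodes an assembly factor of respiratory complex III, and 149 bp for Kmt2d, which encodes a histone H3K4 methyltransferase. The second word of Gm41168 lay 72 bp from the summit. Among peaks with a score of at least 100, 4 of 9 sequences held a word (44.4%, 18.9 to 73.3%). Among sequences that lay wholly inside a WT-only peak the count was 5 of 11 (45.5%, 21.3 to 72.0%), against 2 of 27 wholly inside a KO-only peak (7.41%, 2.06 to 23.4%). The 9 sequences met 8 peaks, the 11 met 10 and the 27 met 25. In the WT-only counts the site shared by Bcs1l and Zfp142 was counted for both genes, so those intervals are too narrow. The median GC content of sequences wholly inside a peak was 62.7% for WT-only and 68.7% for KO-only peaks. Over all sequences meeting a KO-only peak, 10 of 96 held a word (10.4%, 5.76 to 18.1%). The bare core CTTTG stood in 15 of 30 sequences, and in 53.9% of all promoter sequences. The 300-base windows of Axin2, Tcf7, Fgf18 and Ism2 did not contain the core. The summits of the Axin2, Tcf7 and Fgf18 peaks lay outside these windows, and the Ism2 summit lay inside its window near the edge. The Axin2 window covered 300 bp of a peak of 1518 bp, and the Fgf18 window shared 105 bp with its peak. Whether the core stood in the parts of these peaks that were not read was not tested. The sequences differed in base composition, with a median GC content of 64.0% for WT-only peaks, 54.3% for KO-only peaks and 52.7% for all promoters, and its part in the motif shares was not tested.

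Most of the 734 peaks were weak. Tags, the reads counted in a peak, ran from 13 to 1648 with a median of 21, and 640 peaks (87.2%) held fewer than 40. The median was 106 for peaks called in both and 14 for KO-only peaks. The score, the p-value of the peak caller as a negative log10 times 10, was at least 50 in the WT list and had a median of 56.9. It reached 100 in 39 peaks (5.31%) and 200 in 15. Fold enrichment over the caller's background had a median of 6.50, and the FDR had a median of 27.1% with a lowest value of 3.85%. The median fold was 7.05 for peaks called in both and 8.85 for KO-only peaks. The median FDR was 9.57% for peaks called in both and 97.5% for KO-only peaks, whose lower quartile was 80.1%. Most KO-only calls, set beside the members throughout, were thus uncertain. An FDR of 20% or less was given to 220 of the 734. The member of highest score, at Axin2, was not among them and had the highest FDR of the members, 33.3%.

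The rule split peaks that lay close to each other. Just inside it were a peak in Cast, 76 bp from a KO peak, with 21 tags, a peak near Chl1, 84 bp away, with 34 tags, and a peak near Gm6749, 127 bp away, with 17 tags. Just outside it were a peak near Tlr4 sharing 134 bp, with 27 KO and 20 WT tags, a peak near Sox2 sharing 154 bp, with 27 KO and 17 WT tags, and a peak near Impact sharing 196 bp, with 59 KO and 56 WT tags. Such close cases were few, since 6 members had a KO peak within 1 kb and 29 within 10 kb.

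**Figure D1:**
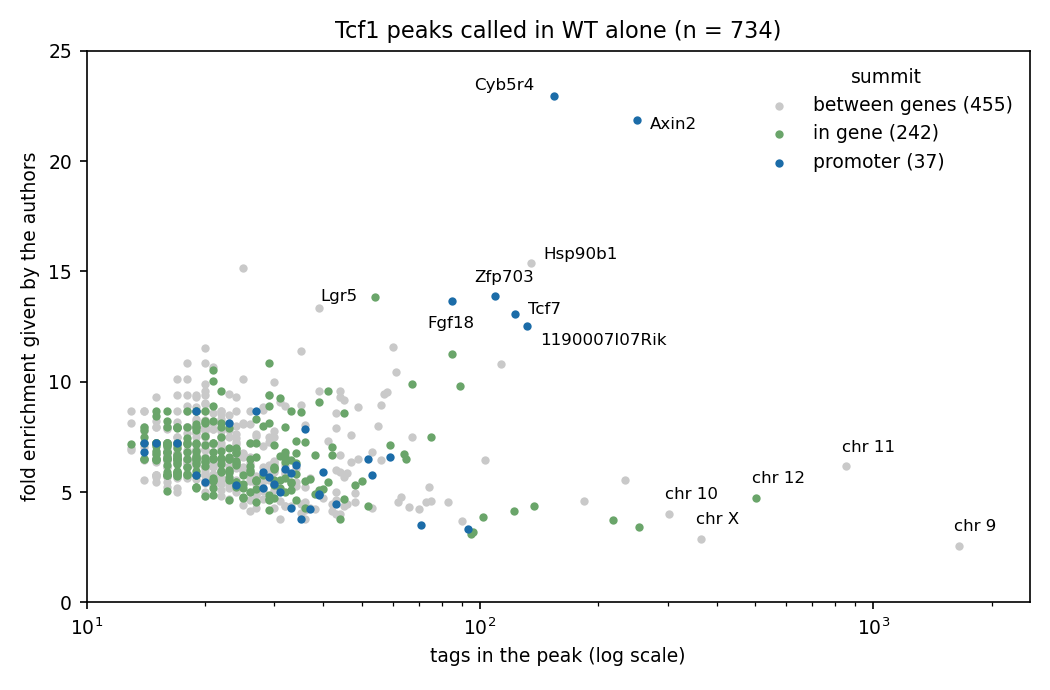
Fold enrichment given by the authors (linear axis) against the tags of each of the 734 Tcf1 peaks called in WT alone (log axis), coloured by where the summit lies. The blue promoter peaks of Axin2 and Cyb5r4 stand highest at folds of 21.8 and 23.0, while the peaks with most tags, named by chromosome, lie at folds of 2.56 to 6.16.

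The members with the most tags and those with the highest enrichment were different peaks. Of 9 members with at least 200 tags, 8 had a fold enrichment under 7. The largest was at chr9:124256252-124258047, 26.6 kb from the start of Gm39469, with 1648 tags and a fold of 2.56. A peak at chr11:3099994-3103505 held 854 tags at a fold of 6.16, and one in Mdga2, a cell adhesion gene, held 504 tags at 4.73. The exception was Axin2, with 251 tags and a fold of 21.8. The 8 tall peaks of low fold overlapped no H3K4me3 peak in either genotype and lay away from promoters.

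The share of members at promoters was higher among the strong ones. A summit lay within 1 kb of a protein-coding transcription start site (TSS) in 37 of 734 WT-only peaks (5.04%, 95% Wilson interval 3.68 to 6.87%). None of the 114 peaks called in both did so (0%, up to 3.26%), and 119 of 4976 KO-only peaks did (2.39%, 2.0 to 2.85%). Intervals cover counting error only. By score the share in WT-only peaks was 2.94% from 50 to 60, 5.39% from 60 to 80, 8.16% from 80 to 100 and 23.1% at 100 or more (9 of 39, 12.6 to 38.3%). The corresponding shares of KO-only peaks were 2.44%, 2.54%, 0.870% and 3.23% (6 of 186, 1.49 to 6.86%). Below a score of 80 the intervals of both classes overlapped, and above it they did not. Scores of different lists are not on 1 scale, because they depend on the depth of each library.

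**Figure D2:**
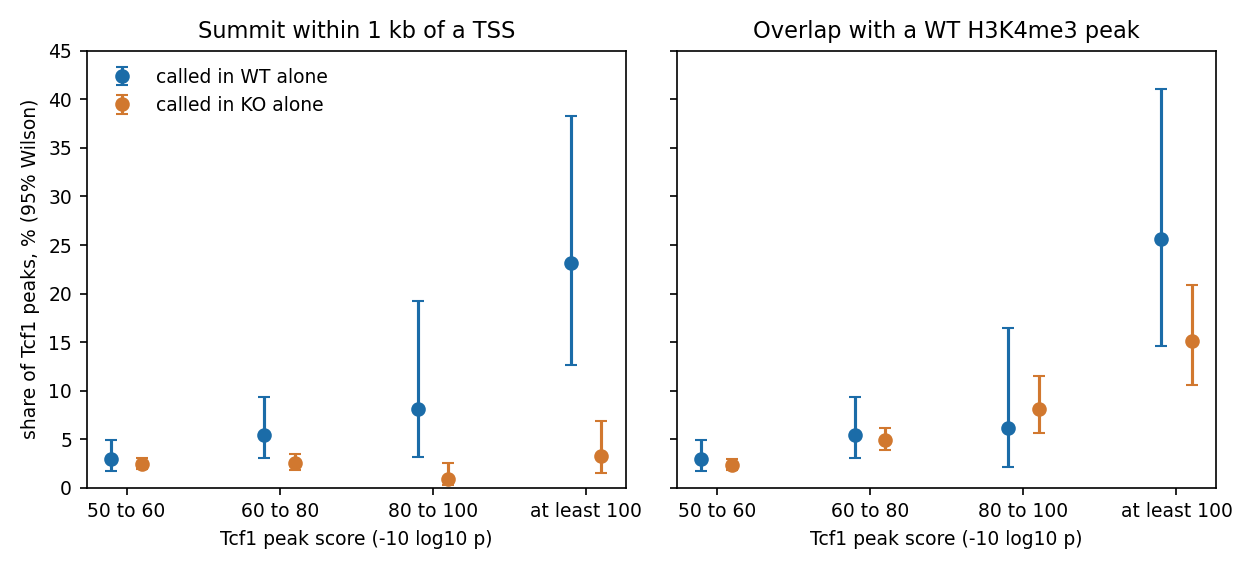
Share of Tcf1 peaks with a summit within 1 kb of a TSS (left) and overlapping a WT H3K4me3 peak (right), in percent, by score range, for peaks called in WT alone and in KO alone; bars are 95% Wilson intervals. At scores of 100 or more, 23.1% of WT-only and 3.23% of KO-only peaks lay at promoters, while the H3K4me3 shares of 25.6% and 15.1% have overlapping intervals.

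Away from promoters the members were placed much like KO-only peaks. Summits lay inside a gene for 242 (33.0%) and between genes for 455 (62.0%), against 34.0% and 63.6% of KO-only peaks. The median distance to a protein-coding TSS was 64.9 kb, against 75.3 kb for peaks called in both and 74.7 kb for KO-only peaks. Over 100 kb from any TSS were 301 members (41.0%), against 44.7% of peaks called in both and 43.4% of KO-only peaks. In addition, 7 members that were not at a protein-coding promoter lay within 1 kb of the start of a long noncoding RNA, among them those at Gm41168 and Gm46567.

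**Figure D3:**
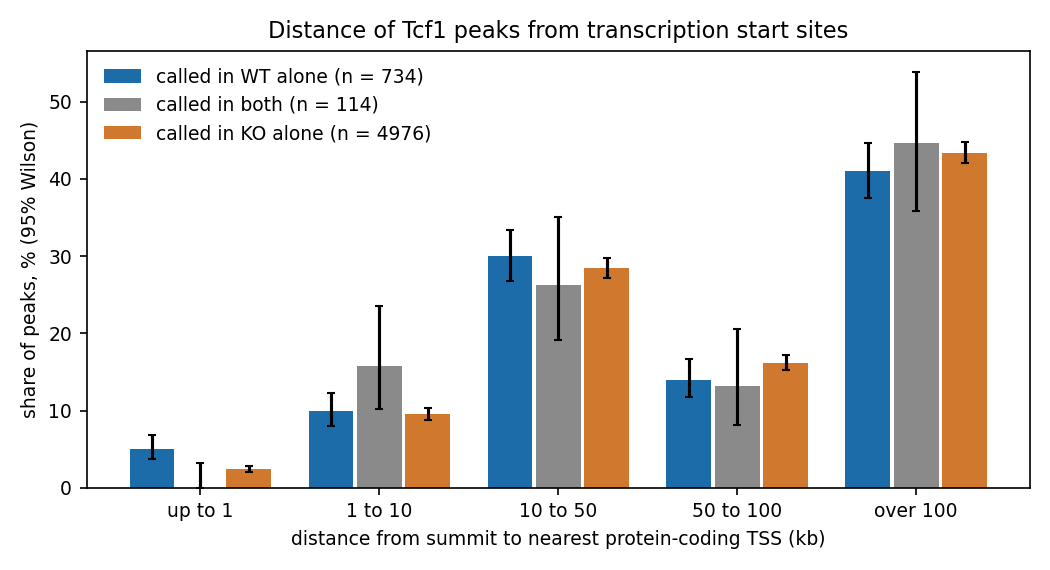
Share of peaks, in percent, by distance from the summit to the nearest protein-coding TSS, for the 734 peaks called in WT alone, the 114 called in both and the 4976 called in KO alone; bars are 95% Wilson intervals. From 1 kb outward the intervals of the classes overlap, and within 1 kb WT-only peaks stand at 5.04%, peaks called in both at 0% and KO-only peaks at 2.39%.

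The strongest promoter members had summits close to the start. Axin2, the feedback scaffold of the beta-catenin destruction complex, had its summit 63 bp inside the gene (chr11:108920078-108921595, 251 tags). The peak of Tcf7, the gene of Tcf1 itself, had its summit 6 bp from the start (chr11:52282921-52283707, 123 tags), and the peak of Zfp142 covered the start as well (chr1:74587715-74588368, 59 tags). Summits lay upstream of Cyb5r4, a cytochrome b5 reductase, by 0.190 kb (154 tags), of 1190007I07Rik by 0.133 kb (132 tags), of Zfp703, a zinc finger cofactor, by 0.217 kb (109 tags) and of the growth factor gene Fgf18 by 0.513 kb (85 tags). Ism2, which encodes a secreted protein of the isthmin family, had a summit 0.101 kb upstream (53 tags). Coq2, an enzyme of coenzyme Q synthesis, had one 0.887 kb upstream (36 tags). These 9 peaks are all the promoter members with a score of at least 100.

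A second tier of promoter members with scores of 60 to 100 was weaker. It included genes of chromatin and transcription, such as Tbl1xr1, a subunit of the NCoR corepressor that also binds beta-catenin (32 tags), and Ino80d, a subunit of the INO80 remodelling complex (33 tags). It also included the signalling genes Nrbp1 (40 tags), Sh2b1 (52 tags) and Fgf2 (28 tags). The others with a protein-coding start were Gm1979 (71 tags), Arl9 (34), Hsf5 (30), Zfp276 (43), Thap12 (28), Tshz2 (20), Cacna2d2 (19), Zfr (39) and Rab9b, a small GTPase gene with 2 peaks of 27 and 23 tags. Rab9b was also among 11 genes with 2 members in the gene or within 10 kb. Further genes with such pairs included Zfp600, Hsp90b1, Pde5a, Cfap299, Dner and Magi2. In Zfp600, Pde5a, Cfap299, Dner and Magi2, 1 to 3 KO peaks lay in the same window.

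Away from promoters, the strong members were scattered over genes of varied function. Outside promoters and H3K4me3 peaks, the 5 of highest score in genes were those of Nkd1, Dhx34, Pdzk1, Lgr5 and Plcl1. Pdzk1, a scaffold protein gene, held 67 tags 15.6 kb into the gene, and Plcl1, which encodes a phospholipase C-like protein, held 33 tags 252 kb from its start. Between genes, the 5 of highest score were nearest to the starts of Lef1, Zc3hc1, Gm39469, Ets2 and Tnfrsf19. The peak near Zc3hc1 lay 3.36 kb upstream with 58 tags, and the peak near Ets2, a transcription factor gene, lay 114 kb away with 61 tags. Among the 25 of highest score were also peaks nearest to Pde5a (57 tags, 7.52 kb upstream), Etnk1 (49 tags), Fkbp4 (56 tags), Rai14 (45 tags), Opa1 (44 tags), Gtdc1 (29 tags) and Neu4 (43 tags). The nearest start does not show which gene a distant peak acts on.

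Wnt pathway genes were then counted by role. Any protein-coding gene had a WT-only peak in it or within 50 kb in 3.91% of cases (845 of 21631), and one with a score of at least 100 in 0.319%. Genes holding a WT-only summit had a median length of 129 kb, against 17.3 kb for all protein-coding genes. The shares were not adjusted for gene length, and its part in the list counts was not tested. Among 25 feedback inhibitors and targets of Wnt signalling, 7 had such a peak, and 6 of these had a score of at least 100. They were Axin2, Zfp703, Fgf18, Nkd1, Lgr5, Tnfrsf19 and Rnf43. Nkd1 is an inhibitor of Dishevelled, Lgr5 a receptor for R-spondins, and Rnf43 a ubiquitin ligase that removes Frizzled receptors from the surface. The Lgr5 peak lay 1.16 kb into the gene with 54 tags and a fold of 13.8 (chr10:115586337-115586973). The peak counted for Rnf43 lay 45.8 kb from it, at the promoter of Hsf5, and held 30 tags. KO-only peaks lay within 50 kb of 5 of the 25, where 20.3% of all genes had one.

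Among 14 Tcf/Lef factors and their coregulators, 2 had a member nearby, Tcf7 and Lef1, both with scores of at least 100. Tcf7 had a second, weak peak 35.1 kb from the gene with 28 tags. Of 31 ligands, receptors and destruction complex genes, 2 had a peak, Wnt3a at 35.7 kb with 30 tags and the receptor gene Ror2 with 39 tags inside the gene, and neither reached a score of 100. The Wnt members with strong peaks were thus feedback genes, targets and the factors themselves in these lists. The lists were chosen with earlier results of these data known, so the counts describe the members and do not stand as independent support.

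The members near genes that define NK cells all had scores under 100 in these lists. Over all protein-coding genes, 0.319% had a member with a score of at least 100 within 50 kb, so lists of these sizes would hold few or none. Among 42 transcription factors of NK and innate lymphoid cells, 3 had a WT-only peak within 50 kb (7.14%, where 3.91% of all protein-coding genes had one). Zeb2, a maturation factor, held 31 tags in the gene, Prdm1, which encodes Blimp-1, held 37 tags in the gene, and Tbx21, which encodes T-bet, had 25 tags at 17.9 kb. None lay within 50 kb of 36 NK cell receptors, 30 cytokine and chemokine receptors, 21 cytotoxic effectors besides granzymes or 16 survival and death genes. At the share of 3.91% over all protein-coding genes, each such list would hold few or none, so these absences are not a result about the lists. A single weak peak of 36 tags served 2 of 10 granzymes, 25.8 kb from Gzmb and 46.5 kb from Gzmc. Among 24 T cell genes, Foxp3 (33 tags at 23.1 kb) and Cd5 (27 tags in the gene) had one. B cell, myeloid and erythroid lists, with 10, 12 and 8 genes, had none.

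The labelled cell type was checked by the mark at promoters of marker genes. H3K4me3 stood at 10 of 10 NK cell markers in KO and in WT. Of 8 T cell markers with a usable start, 2 were marked in KO and 4 in WT (Cd3e, Cd3d, Cd28 and Bcl11b in WT). Over all genes with a known start 51.8% were marked in KO and 58.1% in WT, so the WT count for T cell markers was near that share. No B cell marker of 3 was marked, and of 5 myeloid markers 0 were marked in KO and 1, Cd14, in WT. Of 5 erythroid markers 1, Klf1, was marked in KO and in WT. The part of the T cell markers in the results was not tested. The lists held 11063 KO and 13753 WT H3K4me3 peaks, and sequencing depths are unknown here.

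H3K4me3 was not used by the rule, so its place under the members could be compared. Of 734 members, 25 overlapped a KO H3K4me3 peak (3.41%, 2.32 to 4.98%) and 37 a WT H3K4me3 peak (5.04%, 3.68 to 6.87%). Peaks called in both overlapped a KO H3K4me3 peak in 15 of 114 cases (13.2%) and a WT H3K4me3 peak in 61 (53.5%). KO-only peaks did so in 1.81% and 3.96% of cases. Over WT H3K4me3 the WT-only peaks were thus far from the peaks called in both and nearer to the KO-only peaks. H3K4me3 peaks of both genotypes were overlapped by 3.27% of WT-only peaks (2.21 to 4.82%) and 0.422% of KO-only peaks (0.276 to 0.644%). At scores of at least 100, 8 of 39 members overlapped a KO H3K4me3 peak (20.5%) and 10 a WT one (25.6%), against 11.8% and 15.1% of KO-only peaks. For peaks called in both with such scores the shares were 21.8% and 76.4%, so the KO share was alike and the WT share was not.

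The H3K4me3 peaks that met members at promoters and elsewhere differed in tags and in their overlap with KO peaks. At promoters, 22 of 37 overlapped a WT H3K4me3 peak, with a median of 902 H3K4me3 tags, and 19 of the 22 overlapped a KO H3K4me3 peak too. Elsewhere, 15 of 697 did, with a median of 89.0 tags, and 5 of the 15 overlapped a KO H3K4me3 peak too. Among all WT H3K4me3 peaks, 22.5% overlapped no KO H3K4me3 peak and the median was 365 tags. These were not split into promoter and other peaks, so whether the difference is particular to the members was not tested. Peaks called in both, none of which lay at a promoter, overlapped WT H3K4me3 alone in 48 of 61 cases, at a median of 126 tags. Of the 37 members over WT H3K4me3, 32 lay wholly inside the marked region. The Tcf1 summit was a median of 330 bp from the H3K4me3 summit, and in 11 cases within 200 bp.

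A few members away from protein-coding promoters lay inside the mark. The peak nearest to Hsp90b1, which encodes an endoplasmic reticulum chaperone, had 135 Tcf1 tags and lay in H3K4me3 peaks of 360 tags in KO and 336 tags in WT. The peak nearest to Fosl2, an AP-1 gene, lay in broad H3K4me3 peaks of 6996 bp in KO and 7607 bp in WT, more than 3.5 kb from their summits. The member nearest to Zswim2 was the one that overlapped an H3K4me3 peak of KO cells alone, with 36 H3K4me3 tags.

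The mark was then compared between genotypes at the 39 genes whose promoters held a member. In KO cells 61.5% of them were marked and in WT cells 69.2%, against 51.8% and 58.1% of all 19785 genes with a known start. Of the 39, 24 were marked in both genotypes, 12 in neither, 3 in WT alone and 0 in KO alone. All 10 genes whose member had a score of at least 100 were marked in WT, and 9 of them in KO. Of all genes marked in either genotype, 11.2% were marked in WT alone. The 3 were Fgf18 (listed with no KO peak, 118 tags in WT), Fgf2 (no KO peak, 71 tags in WT) and Gm51792 (no KO peak, 47 tags in WT). At genes with a KO-only peak at the promoter the mark was less frequent, at 10.9% of 119 genes in KO and 19.3% in WT.

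At the 24 genes marked in both, H3K4me3 differed little between genotypes on balance. The log2 ratio of KO over WT tags, centred on the median of all genes marked in both (a shift of 0.26), had a median of -0.06 with an SD of 0.34 across genes. Divided by peak length it was 0.04, so the sign of the median depended on that choice. The counting interval lay below 0 for 9 genes and above 0 for 4 of the 24, against 22.5% and 19.3% of all genes marked in both. The 24 genes had 21 distinct H3K4me3 regions, since 3 pairs shared one, and counted by region the interval lay below 0 for 8 and above 0 for 2. Beyond -1 was 1 gene, where 1.39% of all genes with at least 100 tags were, and beyond 1 there was none, where 0.0987% were.

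**Figure D4:**
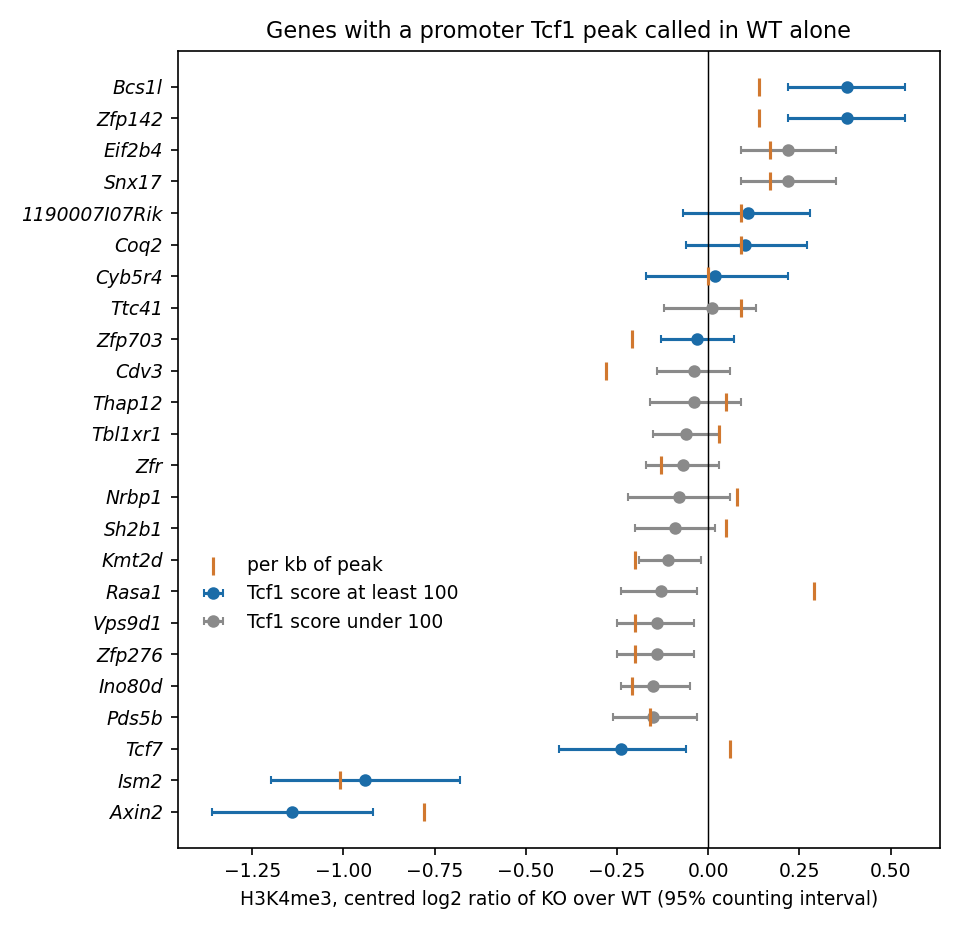
Centred log2 ratio of H3K4me3 tags, KO over WT, at the 24 genes marked in both genotypes whose promoter holds a Tcf1 peak called in WT alone, 3 pairs of which share a promoter; dots are tag sums with 95% counting intervals, coloured by Tcf1 score, and orange ticks the ratio per kb of peak. Axin2 at -1.14 and Ism2 at -0.94 stand apart from the other genes, which lie between -0.24 and 0.38.

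Axin2 and Ism2, both with a strong member, had less of the mark in KO. The Axin2 promoter had 247 H3K4me3 tags over 2143 bp in KO and 453 tags over 2852 bp in WT. Its ratio was -1.14 (95% counting interval -1.36 to -0.92), and -0.78 per kb of peak. The Ism2 promoter had 193 tags over 1701 bp in KO and 309 tags over 1690 bp in WT, a ratio of -0.94 (-1.20 to -0.68), and -1.01 per kb. The next lowest was Tcf7, with 535 tags in KO and 525 tags in WT at -0.24 (-0.41 to -0.06), but 0.06 per kb, so its direction depended on peak width. Below 0 by both measures were also Ino80d at -0.15 and Pds5b, a cohesin regulator, at -0.15.

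Other promoters with a member had little difference or more of the mark in KO. The shared promoter of Bcs1l and Zfp142 had 768 tags in KO and 491 tags in WT, a ratio of 0.38 (0.22 to 0.54), and 0.14 per kb. The shared promoter of Eif2b4, a translation initiation factor subunit, and Snx17, a sorting nexin, where the member was weak (39 tags), had 1208 tags in KO and 863 tags in WT, a ratio of 0.22. For 1190007I07Rik the ratio was 0.11 (-0.07 to 0.28), for Cyb5r4 0.02 (-0.17 to 0.22) and for Zfp703 -0.03 (-0.13 to 0.07). A strong WT-only peak at a promoter thus stood beside ratios of either sign.

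Genes with a member nearby but not at the promoter showed ratios of either sign as well. Nkd1 had 122 promoter tags in KO and 163 in WT, a ratio of -0.68 (-1.02 to -0.34), and -0.80 per kb. Lef1 had 1437 tags in KO and 1463 in WT at -0.29 (-0.40 to -0.19), and Prdm1 had 1194 in KO and 1126 in WT at -0.18, but 0.18 per kb. Ratios were above 0 for Rnf43 (0.48, 1007 tags in KO and 601 in WT), Gzmb (0.59, 1842 in KO and 1022 in WT), Zeb2 (0.21) and Tbx21 (0.18), and below 0 for Gzmc (-0.44, 313 in KO and 353 in WT). Lgr5, Tnfrsf19, Wnt3a, Ror2, Foxp3 and Cd5 had no H3K4me3 peak at the promoter in either genotype.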

How the data were processed

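Splenic NK cells were fixed in 1% formaldehyde for 10 minutes, per the labels. Fragments of 100 to 400 bp were selected and read from 1 end over 100 bases. Tools named in the submitters' processing notes are Bowtie2 2.1.0 and MACS 1.4. The same notes list mm10, GRCm38 and GRCh37 without saying what each was used for. Peak calling settings and the control used are not given in the sources used here. All positions are taken to be GRCm38/mm10. Each library had its own peak calls. For each peak the deposited lists give a count of tags, not scaled to depth, a score of 10 times the negative log10 of the p-value, a fold enrichment that is a ratio over background, and an FDR in percent, per the file headers. The authors' other columns name gene features. Rows were reduced to distinct peaks, and starts counted from 0 were converted to count from 1. Input libraries were not analysed here.

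TSSs of 19785 of 21631 protein-coding genes came from RefSeq tables. Strand came from these tables for 17274 genes and from gene features named in the peak lists for 2511, and 1846 genes had no known strand. The set of genes with a known start thus depended in part on the peaks. How this affected the marked shares over all such genes was not tested. Overlap meant at least 1 bp. Genes with H3K4me3 peaks up to 1 kb from the TSS counted as marked, and the tags of those peaks were summed. Intervals are 95% Wilson or Poisson intervals of counting error, and PCR copies were not identified. No genome sequence was used here, so the words CTTTGAT and CTTTGTT were searched in promoter sequences in place of the planned 200 bp around summits.

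The members and gene lists were chosen with earlier results of these data known. The genes named were those nearest to the 25 members of highest score, those with a member of score 60 or more at the promoter, up to 4 per list within 50 kb, the peaks at the edge of the rule, the 5 highest and 5 lowest ratios with at least 100 tags in 1 library, genes with 2 or more members, and the 5 highest scores in genes and between genes outside H3K4me3. Mdga2, Kmt2d, Rnf43, Gm41168, Gm46567, Gm51792, Fosl2 and Zswim2 lie outside this rule and were picked with their values in view, and 1 gene that the rule takes is not reported here. The 13 lists held 280 genes, of which 279 were found. The steps were tested on simulated data. Alternatives covered overlap, score, FDR, TSS distance, tags per kb and motif. The software was Python 3.11.15 with matplotlib 3.10.9, scipy 1.17.1, pandas 2.3.3 and numpy 2.4.6.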

Additional observations from a re-analysis of the deposited data

Results flagged for a closer look

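Outside the chromosomes used by the rule, the WT Tcf1 list held 18 peaks, and 17 of them shared no base with a KO Tcf1 peak. They were counted because they are a signal outside the regions compared, and their genes were not examined.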

How the results depend on the processing

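The number of members was 699 to 771 under other overlap rules, a stricter KO list or autosomes alone. With a score of at least 100, the share of members at promoters was 23.1%, over WT H3K4me3 25.6%, over KO H3K4me3 20.5% and with a Tcf/Lef word 44.4%. With an FDR of at most 20% the first 3 were 8.18%, 8.18% and 5.91%. With TSSs within 0.5 kb the promoter share was 3.68%. The word share was 50% for the core CTTTG and 45.5% for sequences wholly inside a peak. The word shares of 44.4% and 45.5% count the site shared by Bcs1l and Zfp142 for both genes. The count inside peaks, the matching KO-only count and the use of 1 sequence for each peak (4 of 25) were chosen after seeing the data. The median H3K4me3 ratio stayed between -0.07 and 0.04, positive per kb of peak and, at 0.02, for scores of at least 100. Wnt and Tcf/Lef genes with a member within 50 kb numbered 11 of 70, where 3.91% of all protein-coding genes had one. They numbered 9 within 10 kb and 14 within 100 kb, beside 1.82% and 6.56% of all protein-coding genes. With a score of at least 100 they numbered 8, beside 0.319% of all. At an FDR of at most 20% they numbered 9, as Axin2 (FDR 33.3%, rank 3 by score in the WT list) and Ror2 (21.8%) dropped out. The share over all genes at that FDR was not counted. No paired analysis was possible because each group held 1 library, and for the same reason no replicate could be left out. Depth is unknown, and its part in which weak peaks near the score limit of 50 were called was not tested.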
